A study of Mus musculus with 12 samples.

Results

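The tight junction genes followed here were 9 of the 19938 genes that the arrays measured through a transcript cluster (the array's set of probes for 1 transcript region) with exactly 1 gene symbol: the claudins Cldn1, Cldn3, Cldn4, Cldn7, Cldn10 and Cldn23, the junction membrane proteins Ocln and Marveld2, and the scaffold Tjp1. They were chosen by name, with earlier results of these data known. Where a gene had several clusters the one with the highest mean over the 12 arrays was used. Tight junctions seal the space between neighboring epithelial cells near the lumen. Claudins form the strands of the seal, and the claudins present decide how tight it is and which ions pass. Occludin and tricellulin sit in the same strands, and ZO proteins tie them to actin beneath the membrane. The luminal epithelium of the uterus is the first barrier that seminal fluid meets.

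The study asked how sperm contribute to the endometrial response to mating, by comparing males that deliver complete seminal fluid with males that deliver seminal plasma without sperm. The paper states that the ejaculate after vasectomy also lacks what testis, epididymis and vas deferens secrete. Sperm and these secretions therefore cannot be told apart in the comparison of the mated groups. Endometrium was scraped from the uterus of CBAF1 females (F1 offspring of CBA and C57Bl/6 mice) aged 9 to 16 weeks. Intact BALB/c males had mated the intact-mated group 8 h before collection, and vasectomized BALB/c males the vasectomized-mated group, also 8 h before. The control group was unmated virgin females. Each group had 16 females, pooled by 4 into 4 RNA pools with 1 array each, so the error given below is the spread between pools and the females within a pool cannot be seen. All females, controls included, were of this F1 background. The labels call the controls estrus, while the methods place their collection on the evening of pro-estrus, so mating and the hour or cycle stage of collection cannot be told apart in any comparison with controls. Both mated groups were collected at the same time after mating.

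Values are log2 array intensities, and a difference of 0.58 is a 1.5-fold difference. A gene was called where the fold-change was at least 1.5 and the adjusted p at most 0.05 (limma with Benjamini-Hochberg adjustment over all 35556 clusters). All 9 genes lay above 7.28, the median of the mean values of all clusters. The median value of an array was between 7.25 and 7.32 in all 12 arrays. Control pools 1 and 2 stood apart from control pools 3 and 4 across the arrays as a whole. The root mean square log2 difference was 0.282 between controls 1 and 2, 0.264 between controls 3 and 4, and 0.319 to 0.382 between arrays of different pairs, against 0.237 to 0.274 among intact-mated and 0.229 to 0.256 among vasectomized-mated pools. The labels do not separate these controls.

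The endometrial label was set against marker genes. The mean value of 9 epithelial markers, of which Cdh1 and Epcam are also in the junction lists below, was 12.23 to 12.31 in intact-mated pools, 12.17 to 12.24 in vasectomized-mated pools and 12.15 to 12.29 in controls. Of the 9, 1 was called, Ehf, higher after intact mating than in controls. By the adjusted p alone 2 were higher and 1, Krt7, was lower in each mated group against controls. Of all genes 7.64% were higher and 5.99% lower by it after intact mating, and 3.51% and 1.76% after vasectomized mating. The log2 fold-change of Krt7 was -0.35 after intact mating (adjusted p = 0.0276) and -0.50 after vasectomized mating (adjusted p = 0.0104, limma). The 7 stromal markers averaged 8.50 to 9.24 in intact-mated pools, 8.94 to 9.46 in vasectomized-mated pools and 9.01 to 9.94 in controls, with all 7 lower on average after intact mating than in controls and 1 of them, Col1a1, called. All 7 were also lower on average after vasectomized mating than in controls, and after intact than after vasectomized mating, none of these called. The 7 neutrophil markers averaged 7.12 to 7.67 in intact-mated pools, 6.68 to 6.83 in vasectomized-mated pools and 6.53 to 6.64 in controls, and 3 of the 7 were called higher after intact mating against each of the other groups. Only 1 of these 7 markers had a mean over all arrays above the median of all clusters. Smooth muscle markers were present, at means of 9.12 to 10.12 in intact-mated pools, 9.40 to 10.24 in vasectomized-mated pools and 9.64 to 9.86 in controls, with 0 of 5 called in any comparison. Of the squamous epithelial markers 1 of 5, Krt13, was called lower in both mated groups against controls. Beside these marker counts, 2.78% of all genes were called higher and 2.11% lower in intact-mated against control pools. In vasectomized-mated against control pools 0.657% were called lower, and in intact-mated against vasectomized-mated pools 0.627% were called higher. No marker of glandular epithelium, blood endothelium, macrophages, mesothelium or oviduct (0 of 4, 0 of 5, 0 of 5, 0 of 4 and 0 of 1 measured) was called in any comparison. The 5 blood endothelial markers were all lower on average after either mating than in controls, and after intact than after vasectomized mating. In such bulk tissue fewer cells of a type and less RNA per cell cannot be told apart, and the part of these shifts in the values below was not tested.

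Of the 9 genes, 0 were called higher and 1 was called lower after intact mating compared to controls, where 2.78% of all genes were called higher and 2.11% lower, and 3 had an unadjusted p under 0.05, as had 27.8% of all genes. After vasectomized mating 0 were called in either direction compared to controls (1.19% of all genes higher and 0.657% lower), with 2 at an unadjusted p under 0.05 (20% of all genes). Between intact and vasectomized mating 0 were called (0.627% higher and 0.271% lower), with 4 at an unadjusted p under 0.05 (17.6% of all genes). The adjusted p alone passed for 1 gene higher and 1 lower after intact mating against controls (7.64% and 5.99% of all genes), for 0 in either direction after vasectomized mating (3.51% and 1.76%), and for 1 gene higher and 0 lower in intact-mated against vasectomized-mated pools (1.72% and 1.09%). The median log2 fold-change of the 9 genes was 0.03, 0.03 and -0.03 in the 3 comparisons, beside 0.01, -0.01 and 0.02 over all genes. The comparisons with controls share the same 4 control pools. Cldn7 and Cldn10 were the genes that passed the adjusted p, Cldn1 and Cldn4 had the widest spread among controls, and the log2 fold-changes of the other 5 genes lay between -0.25 and 0.28 in all 3 comparisons.

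**Figure D1:**
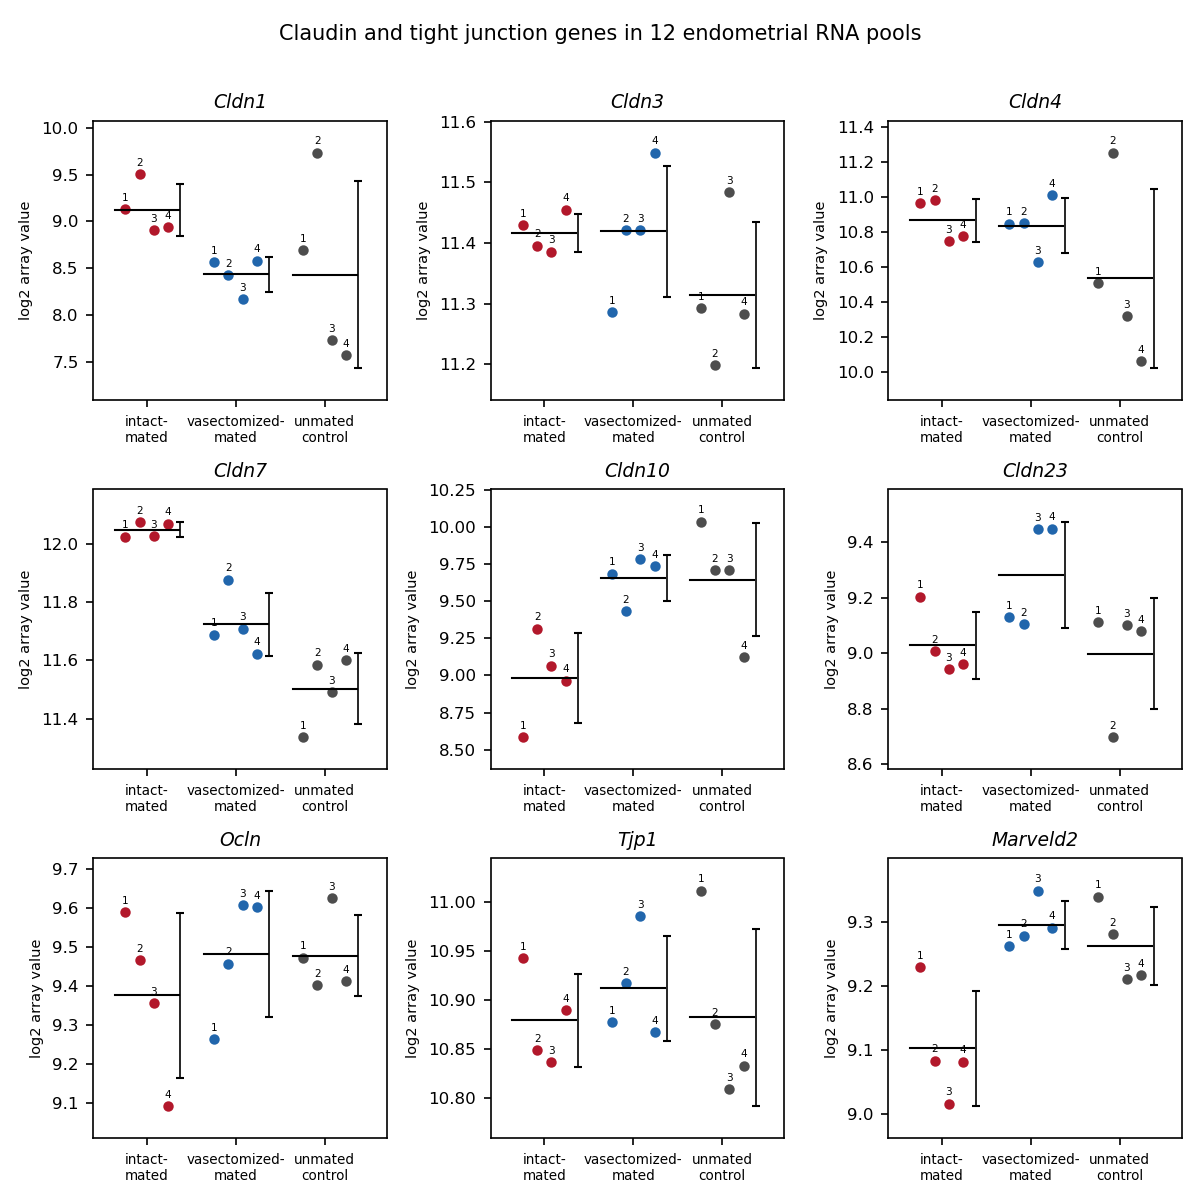
Log2 array values (vertical axes) of the 9 genes in each of 12 RNA pools, numbered by replicate, in intact-mated, vasectomized-mated and control groups. Horizontal lines are group means and bars beside them the SD (n = 4); Cldn7 has no overlap between groups, and Cldn1 and Cldn4 have their widest spread among controls.

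As examples of the sequence in front of these genes, the windows from 250 bases before to 50 bases after the annotated start sites of Cldn7, Cldn10 and Cldn4 are printed from RefSeq (GRCm38.p6). Of the 9 genes 8 had such windows, 12 in all, several with alternative starts; Cldn23 had none. Both strands were searched for AP-1 (TGANTCA), grainyhead-like (AACCNGTT), the E-box bound by Snail and Zeb proteins (CAGGTG), ETS (CGGAAG) and the palindromic estrogen response element, and capitals mark every match. The windows lie on the plus strand at chr11:69964529-69964828 and chr11:69965171-69965470 for Cldn7, on the plus strand at chr14:118787621-118787920 and chr14:118854700-118854999 for Cldn10, and on the minus strand at chr5:134946885-134947184 for Cldn4.
Cldn7, upstream start: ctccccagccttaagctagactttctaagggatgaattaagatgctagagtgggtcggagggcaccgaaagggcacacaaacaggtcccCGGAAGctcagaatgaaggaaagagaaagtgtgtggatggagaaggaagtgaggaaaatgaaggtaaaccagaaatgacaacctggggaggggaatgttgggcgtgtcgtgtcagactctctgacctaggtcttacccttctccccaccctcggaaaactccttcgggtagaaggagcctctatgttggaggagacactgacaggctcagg
Cldn7, downstream start: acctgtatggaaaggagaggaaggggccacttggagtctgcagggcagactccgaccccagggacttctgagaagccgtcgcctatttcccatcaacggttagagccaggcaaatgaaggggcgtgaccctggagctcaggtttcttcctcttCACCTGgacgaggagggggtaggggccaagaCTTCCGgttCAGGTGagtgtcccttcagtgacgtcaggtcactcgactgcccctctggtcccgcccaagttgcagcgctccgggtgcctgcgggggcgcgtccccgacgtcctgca
Cldn10, upstream start: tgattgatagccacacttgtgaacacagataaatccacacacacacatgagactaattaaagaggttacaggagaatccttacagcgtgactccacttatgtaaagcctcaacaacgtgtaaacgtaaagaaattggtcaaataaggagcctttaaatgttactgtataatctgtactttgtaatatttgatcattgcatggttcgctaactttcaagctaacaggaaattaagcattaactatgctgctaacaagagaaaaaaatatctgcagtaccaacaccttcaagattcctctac
Cldn10, downstream start: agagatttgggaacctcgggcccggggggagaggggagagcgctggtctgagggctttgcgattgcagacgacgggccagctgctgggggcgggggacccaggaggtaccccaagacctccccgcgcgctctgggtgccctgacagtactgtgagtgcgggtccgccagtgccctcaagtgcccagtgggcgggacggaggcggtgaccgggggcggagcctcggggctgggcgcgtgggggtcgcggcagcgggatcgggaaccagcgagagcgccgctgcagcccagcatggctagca
Cldn4: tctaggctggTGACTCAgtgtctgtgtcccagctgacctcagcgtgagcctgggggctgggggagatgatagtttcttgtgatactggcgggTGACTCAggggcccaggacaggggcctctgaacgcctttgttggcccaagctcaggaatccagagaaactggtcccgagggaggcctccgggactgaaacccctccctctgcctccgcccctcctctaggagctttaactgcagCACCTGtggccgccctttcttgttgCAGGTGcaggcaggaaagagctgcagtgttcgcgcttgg
The E-box was found in 7 of the 12 windows (of Cldn3, Cldn4, Cldn7, Ocln and Marveld2) and in 20.2% of all 32851 windows of this length. The windows of Ocln overlap, as do those of Marveld2, and each pair shares an E-box, so the 12 are not independent. ETS letters were found in 3 windows, of Cldn7 and Tjp1 (16.9% of all windows), and AP-1 letters in 1, of Cldn4 (7.81%). The grainyhead-like and estrogen response element letters matched none of the 12 windows, against 2.09% and 0.0700% of all windows. The window of Cldn1, which is not printed, held no match to any of the letters searched. A match here describes letters and not a bound site.

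Cldn7, a claudin found along the whole lateral membrane of epithelial cells as well as in the junction, differed in steps between the 3 groups. Its log2 values were 12.02, 12.07, 12.03 and 12.07 in intact-mated pools, 11.69, 11.88, 11.71 and 11.62 in vasectomized-mated pools, and 11.34, 11.59, 11.49 and 11.60 in controls. Every intact-mated pool lay above every vasectomized-mated pool, and every vasectomized-mated pool above every control. The intact-mated pools were also the closest to each other, with an SD of 0.03, and 97.6% of all genes had a larger SD in that group. Compared to controls, the log2 difference after intact mating was 0.55 ± 0.07 (SE), a 1.46-fold difference that passed the adjusted p (limma, 0.000525) but not the 1.5-fold threshold. Between mated groups it was 0.32 ± 0.07, a 1.25-fold difference with an adjusted p of 0.0422 (limma). After vasectomized mating it was 0.22 ± 0.07 against controls, with an adjusted p of 0.125 (limma), which missed the threshold. Groups did not overlap in the higher direction for 10.4% of all genes in intact-mated against control pools, for 7.41% in vasectomized-mated against control pools and for 9.04% in intact-mated against vasectomized-mated pools.

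The difference of Cldn7 between intact-mated and control pools passed the adjusted p whichever single array was left out, with log2 fold-changes of 0.49 to 0.58 and adjusted p (limma) of 0.000509 to 0.00256. Without controls 3 and 4 it reached 0.59 and was called. The difference between mated groups was less firm. It passed when any control or vasectomized-mated pool 2 was left out, and missed when any intact-mated pool or vasectomized-mated pool 1, 3 or 4 was left out, with an adjusted p (limma) of up to 0.119. It also missed without variance moderation, at an adjusted p of 0.0564.

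Cldn10 was the 1 gene of the 9 that was called, and it fell after intact mating. Its alternative first exons give claudin-10a and claudin-10b, which form channels that prefer anions and cations. Cldn10 measured 8.59, 9.32, 9.07 and 8.96 in intact-mated pools, 9.68, 9.43, 9.78 and 9.73 in vasectomized-mated pools, and 10.03, 9.71, 9.71 and 9.12 in controls. All intact-mated pools lay below all vasectomized-mated pools, while control 4 lay within the intact-mated range. Compared to controls, Cldn10 fell by 0.66 on the log2 scale after intact mating (SE 0.18, 1.58-fold, adjusted p = 0.0400 in limma). Compared to vasectomized-mated pools the log2 fold-change after intact mating was -0.67 ± 0.18 (SE), 1.60-fold in size, and it missed the threshold with an adjusted p of 0.0792 (limma). Groups did not overlap in this direction for 7.49% of all genes. Vasectomized-mated pools differed from controls by 0.01, with a 95% interval of -0.39 to 0.41.

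The call of Cldn10 was kept when control 4, intact-mated pool 2 or vasectomized-mated pool 2 was left out, and lost when any of the other 9 arrays was, with log2 fold-changes of -0.83 to -0.53 over all 12. Without control 4 the difference from vasectomized-mated pools was called as well (adjusted p = 0.0370, limma). Cldn10 had a second cluster with 1 symbol, whose log2 values averaged 8.46 in intact-mated pools, 9.03 in vasectomized-mated pools and 9.01 in controls. There the log2 fold-change after intact mating was -0.55 ± 0.17 against controls and -0.56 ± 0.17 against vasectomized-mated pools (SE), with adjusted p (limma) of 0.0601 and 0.103, neither called. Another cluster, which the annotation assigns to both Cldn10 and Dzip1, gave -0.57 ± 0.17 against controls (adjusted p = 0.0573, limma). The 3 clusters had the same direction in both comparisons of intact-mated pools. They may share transcripts and are not independent.

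The genes whose values moved most like Cldn10 over the 12 arrays, each set to its own mean, were Txnip, Dnm3 and Frzb. Their root mean square differences from Cldn10 were 0.154, 0.197 and 0.210 on the log2 scale, against 0.405 for the size of the Cldn10 profile itself. For Cldn7, whose own profile had a size of 0.238, the closest profiles were those of Gpd2, Txnrd1 and Cdk5rap3, at 0.0724, 0.0750 and 0.0768. These 3 were looked up after the values of Cldn7 were seen.

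**Figure D2:**
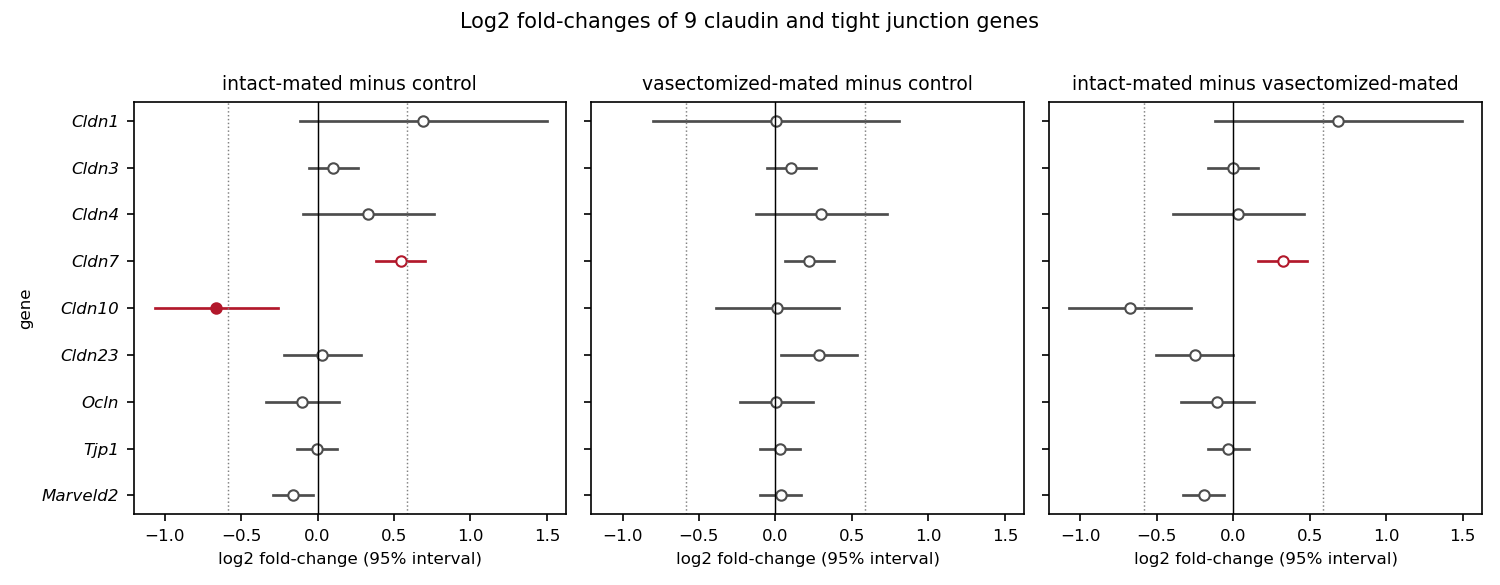
Log2 fold-changes (points) with 95% intervals (lines) of the 9 genes for intact-mated minus control, vasectomized-mated minus control and intact-mated minus vasectomized-mated pools. Red marks an adjusted p of at most 0.05 and a filled point a called gene, and dotted lines mark 1.5-fold; Cldn7 is red at 0.55 and 0.32, and Cldn10 is filled at -0.66.

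Cldn1, a sealing claudin that epithelial barriers such as skin need, varied more among control pools than between groups. Its log2 values were 9.13, 9.51, 8.90 and 8.94 in intact-mated pools, 8.57, 8.42, 8.17 and 8.58 in vasectomized-mated pools, and 8.69, 9.73, 7.73 and 7.57 in controls. The intact-mated pools all lay above the vasectomized-mated pools, as for 9.04% of all genes, and the controls reached from below to above both. The range among controls was 2.16, or 4.48-fold, and 0.236% of all genes had a larger SD there than the 1.00 of Cldn1. The log2 fold-change was 0.69 ± 0.37 (SE) after intact mating and 0.00 ± 0.37 after vasectomized mating compared to controls, with adjusted p (limma) of 0.305 and 0.998. It was 0.69 ± 0.37 between intact-mated and vasectomized-mated pools, a 1.61-fold difference with an adjusted p of 0.373 (limma). The interval of that last difference, -0.12 to 1.49, includes both 0 and a difference above 2-fold.

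Cldn4, a claudin that tightens epithelia and serves as a receptor for a Clostridium toxin, had the same spread among controls on a smaller scale. Its log2 values were 10.97, 10.98, 10.75 and 10.78 in intact-mated pools, 10.85, 10.85, 10.63 and 11.01 in vasectomized-mated pools, and 10.51, 11.25, 10.32 and 10.06 in controls. Control 2 was the highest of all 12 pools and the other 3 controls were the lowest. The log2 fold-change against controls was 0.33 ± 0.20 (SE) after intact mating and 0.30 ± 0.20 after vasectomized mating, with adjusted p (limma) of 0.363 and 0.462. Between mated groups it was 0.03, with a 95% interval of -0.40 to 0.46.

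The direction of both genes against controls depended on which controls were used. Without control 2, Cldn1 was called higher after intact mating at 1.12 (adjusted p = 0.0123, limma), and Cldn4 passed the adjusted p at 0.57 after intact mating (0.00984) and at 0.54 after vasectomized mating (0.0266) without reaching 1.5-fold. Without controls 1 and 2 the log2 fold-changes of Cldn1 were 1.47 after intact and 0.78 after vasectomized mating, and those of Cldn4 were 0.68 and 0.64, all called (adjusted p of 0.000505, 0.0237, 0.00546 and 0.0131 in limma). Without controls 3 and 4 they were -0.09 and -0.78 for Cldn1 and -0.01 and -0.04 for Cldn4, none called. For both genes controls 1 and 2 lay above controls 3 and 4, and control 2 was the highest control. Leaving these controls out therefore raises the differences by construction, and the pairs follow a split seen in these same arrays. The calls and passes so gained were not read as responses to mating. The difference of Cldn1 between intact-mated and vasectomized-mated pools, which does not use the control values, stayed at 0.69 whichever controls were left out, and its adjusted p depended on the estimate of spread. Over all 12 fits that each left out 1 array it was 0.56 to 0.76. It missed the threshold with any single array left out (0.127 to 0.580) and without controls 3 and 4 (0.106), and passed without controls 1 and 2 (0.0265) and with only the 2 groups fitted (0.0346, limma).

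Other markers differed between the same control pools. The stromal markers averaged 9.93 and 9.94 in controls 1 and 2 against 9.10 and 9.01 in controls 3 and 4, and the blood endothelial markers 8.23 and 8.22 against 7.13 and 7.06. The epithelial markers averaged 12.17, 12.15, 12.29 and 12.24 in controls 1 to 4. Control 2, which had the highest Cldn1 and Cldn4, also had the highest mean of glandular markers, at 7.04 against 6.21 to 6.38 in the other controls, though only 1 of these 4 markers lay above the median of all clusters. The part of these markers in the values of Cldn1 and Cldn4 was not tested.

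**Figure D3:**
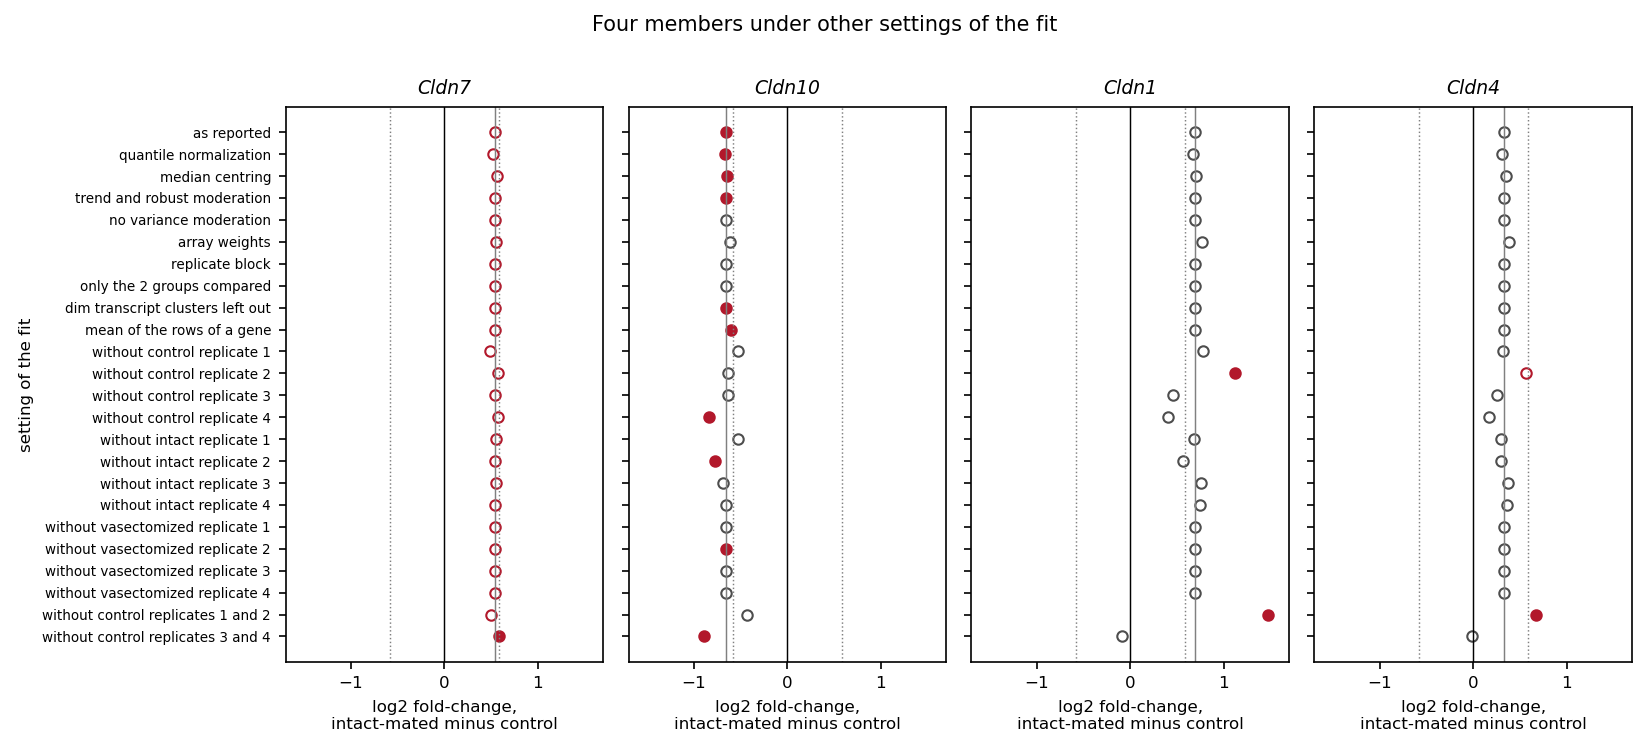
Log2 fold-changes (horizontal axes) of Cldn7, Cldn10, Cldn1 and Cldn4, intact-mated minus control, under each setting of the fit (vertical axis); red marks an adjusted p of at most 0.05, a filled point a called gene, dotted lines 1.5-fold and the grey line the reported value. Cldn7 lies between 0.49 and 0.59 in all settings shown, and Cldn1 between -0.09 and 1.47.

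The other claudins of the group differed little. Cldn3, a sealing claudin whose gene neighbors Cldn4 on chromosome 5, had log2 values of 11.39 to 11.46 in intact-mated pools, 11.29 to 11.55 in vasectomized-mated pools and 11.20 to 11.48 in controls, and the groups overlapped. Its log2 fold-change was 0.10 in both comparisons with controls, with 95% intervals of -0.06 to 0.26 and -0.06 to 0.27, and -0.00 between mated groups (-0.16 to 0.16). All 3 intervals lie inside 1.5-fold. Its neighbor Cldn4 had an SD of 0.51 among controls, where that of Cldn3 was 0.12.

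Cldn23, a claudin studied mainly in the intestine, had log2 values of 8.94 to 9.20 in intact-mated pools, 9.10 to 9.45 in vasectomized-mated pools and 8.70 to 9.11 in controls. Vasectomized-mated pools 3 and 4, both at 9.45, were the highest and control 2 the lowest. The log2 fold-change was 0.28 ± 0.12 (SE) after vasectomized mating against controls and -0.25 ± 0.12 for intact against vasectomized mating, with adjusted p (limma) of 0.205 and 0.282. After intact mating it was 0.03 against controls, with an interval of -0.22 to 0.28.

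Among the other membrane proteins, Marveld2, which encodes tricellulin, the protein that closes the corners where several cells meet, was lowest after intact mating. Marveld2 had log2 values of 9.23, 9.08, 9.02 and 9.08 in intact-mated pools, 9.26, 9.28, 9.35 and 9.29 in vasectomized-mated pools, and 9.34, 9.28, 9.21 and 9.22 in controls. The mated groups did not overlap, as for 7.49% of all genes in this direction, and intact-mated pool 1 lay within the control range. Controls 1 and 2 lay above controls 3 and 4. The log2 fold-change was -0.19 ± 0.06 (SE) for intact against vasectomized mating and -0.16 ± 0.06 against controls, 1.14-fold and 1.12-fold in size. Neither passed the adjusted p (0.127 and 0.133, limma). Vasectomized-mated pools differed from controls by 0.03, with an interval of -0.10 to 0.17.

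Ocln encodes occludin, a membrane protein of the strands. Its log2 values were 9.09 to 9.59 in intact-mated pools, 9.26 to 9.61 in vasectomized-mated pools and 9.40 to 9.63 in controls, and all groups overlapped. Its log2 fold-changes were -0.10 after intact and 0.00 after vasectomized mating against controls and -0.11 between mated groups, and their 95% intervals reached from -0.34 at the lowest to 0.24 at the highest. Intact-mated pool 4 was the lowest of the 12 and the intact-mated SD of 0.21 was exceeded by 7.33% of genes.

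Tjp1 encodes ZO-1, the scaffold that binds claudins and occludin to the actin cytoskeleton. It had log2 values of 10.84 to 10.94 in intact-mated pools, 10.87 to 10.99 in vasectomized-mated pools and 10.81 to 11.01 in controls. Its log2 fold-changes were -0.00, 0.03 and -0.03 in the 3 comparisons, and their 95% intervals reached from -0.17 at the lowest to 0.16 at the highest, inside 1.5-fold in either direction. No single pool stood apart from the others, though controls 1 and 2 (11.01 and 10.87) lay above controls 3 and 4 (10.81 and 10.83).

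Of the other scaffold and polarity proteins, 18 of 19 listed genes were measured, and none was called in any comparison. The adjusted p alone passed for 4, all higher after intact mating compared to controls (Tjp3, Magi1, Cgn and Prkcz), where 7.64% of all genes passed as higher. After vasectomized mating it passed for 1, Tjp3 (3.51% of all genes). These genes were named after their values were seen. Tjp3 encodes ZO-3, a relative of ZO-1 found mainly in epithelia, and its log2 values were 11.58, 11.53, 11.53 and 11.61 in intact-mated pools, 11.35, 11.38, 11.38 and 11.34 in vasectomized-mated pools, and 11.04, 10.79, 11.27 and 11.01 in controls. Like those of Cldn7, the groups did not overlap and were ordered intact-mated, vasectomized-mated, control. Of all genes, 10.4% and 7.41% had no overlap upward in intact-mated and vasectomized-mated pools against controls, and 9.04% between mated groups. The log2 fold-change of Tjp3 was 0.53 after intact mating (adjusted p = 0.00142) and 0.33 after vasectomized mating (adjusted p = 0.0438, limma), and 0.20 between mated groups, which missed the threshold (adjusted p = 0.238). Without control 3 the difference after intact mating was 0.61 and was called. The difference after vasectomized mating passed in 1 of 12 fits that each left out 1 array, with an adjusted p of 0.00877 to 0.112, and missed with replicate number as a block (0.0773, limma). It also missed with quantile normalization (adjusted p = 0.0621), with median centring (0.0721) and without variance moderation (0.0646). With only the 2 groups fitted the adjusted p was 0.119, and without controls 1 and 2 it was 0.113 (limma).

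Magi1, a scaffold with many PDZ domains, had log2 values of 8.74 to 8.82 in intact-mated pools, 8.55 to 8.72 in vasectomized-mated pools and 8.24 to 8.55 in controls, and its log2 fold-change after intact mating was 0.37 (adjusted p = 0.00853, limma). Cgn, which encodes cingulin, a link between the junction and actin and microtubules, had log2 values of 9.29 to 9.51 in intact-mated pools, 9.22 to 9.41 in vasectomized-mated pools and 8.98 to 9.22 in controls. Its log2 fold-change after intact mating was 0.29 (adjusted p = 0.0284, limma), and it no longer passed without control 1 or 2 or intact-mated pool 1, 2 or 4, at an adjusted p of up to 0.0880. Prkcz, an atypical protein kinase C of the polarity complex, was higher by 0.26 (adjusted p = 0.0419, limma). Each of these was under 1.5-fold.

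The other 17 of 18 listed claudins were measured, 4 of them above 7.28, and 1 was called, lower after intact mating against controls (2.11% of all genes). Cldn2, which forms a channel for cations and water, had log2 values of 6.65, 6.90, 6.91 and 6.89 in intact-mated pools, 7.51, 6.66, 7.20 and 6.69 in vasectomized-mated pools, and 7.70, 7.38, 7.38 and 7.58 in controls. It fell by 0.67 after intact mating compared to controls (adjusted p = 0.0235, limma), with no overlap between the groups (7.91% of all genes in this direction), to values below the median of all clusters. After vasectomized mating the log2 fold-change was -0.49 (adjusted p = 0.132, limma), and the difference between mated groups was -0.18 (adjusted p = 0.636). The call was lost without control 1 or 4 or intact-mated pool 1 or 4, at an adjusted p of up to 0.0656. It was also lost without variance moderation (adjusted p = 0.0600), without controls 1 and 2 (0.0893) and without controls 3 and 4 (0.0702, limma).

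Of 11 other membrane proteins of the junction, Bves was called lower in both mated groups against controls (2.11% of all genes after intact and 0.657% after vasectomized mating). It encodes a membrane protein that binds cyclic AMP and is found in heart, muscle and epithelial junctions. Bves had log2 values of 6.64, 6.84, 6.76 and 6.84 in intact-mated pools, 7.31, 6.69, 7.13 and 7.22 in vasectomized-mated pools, and 7.91, 7.90, 7.42 and 7.67 in controls. It fell by 0.96 after intact mating (adjusted p = 0.000800) and by 0.64 after vasectomized mating (adjusted p = 0.0234, limma) compared to controls. There was no overlap in either (7.91% of all genes in the first and 4.85% in the second). The second call was lost without control 1, 2 or 4 or vasectomized-mated pool 2 or 3, without variance moderation (adjusted p = 0.0608), with only the 2 groups fitted (0.0756) and with replicate number as a block (0.0570, limma). It was also lost without controls 1 and 2 (adjusted p = 0.107, limma).

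Of 10 listed proteins that act on claudins, 9 were measured. Ovol2, a transcription factor that keeps cells epithelial, had log2 values of 8.50, 8.39, 8.37 and 8.33 in intact-mated pools, 8.89, 8.93, 9.12 and 8.98 in vasectomized-mated pools, and 9.27, 8.95, 9.61 and 9.53 in controls. Every intact-mated pool lay below every other pool. In this direction 7.91% of all genes did not overlap against controls and 7.49% against vasectomized-mated pools. Ovol2 fell by 0.94 after intact mating compared to controls (adjusted p = 0.000379, limma), a call that held whichever array was left out. After vasectomized mating the log2 fold-change was -0.36 (adjusted p = 0.128). Between mated groups it was -0.58 (adjusted p = 0.0302, limma), just under 1.5-fold, and it passed the adjusted p in 5 of 12 fits that each left out 1 array (the 4 without a control and that without intact-mated pool 1).

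Wnk4, a kinase that phosphorylates claudins in kidney epithelium and was named after its values were seen, had log2 values of 8.14, 8.08, 8.11 and 8.16 in intact-mated pools, 8.84, 8.63, 8.58 and 8.65 in vasectomized-mated pools, and 8.73, 8.66, 8.45 and 8.56 in controls. The intact-mated pools lay below all others, and the vasectomized-mated and control pools overlapped. For Cldn10 the vasectomized-mated and control pools overlapped too, but control 4 lay within the intact-mated range. Intact-mated pools lay below all controls for 7.91% of all genes, and below all vasectomized-mated pools for 7.49%. The log2 fold-change after intact mating was -0.48 against controls (adjusted p = 0.00166) and -0.55 against vasectomized-mated pools (adjusted p = 0.00646, limma), and both passed the adjusted p whichever array was left out. Neither reached 1.5-fold. Of the same list, Spint2, an inhibitor of membrane proteases, was higher by 0.23 after intact mating against controls (adjusted p = 0.0430), and the epithelial transcription factor Grhl2 differed by -0.28 (adjusted p = 0.0438, limma), both under 1.5-fold and named after their values were seen. The proteases St14 and Prss8, the inhibitor Spint1 and the claudin partner Epcam had adjusted p of 0.311 to 0.891 in that comparison.

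**Figure D4:**
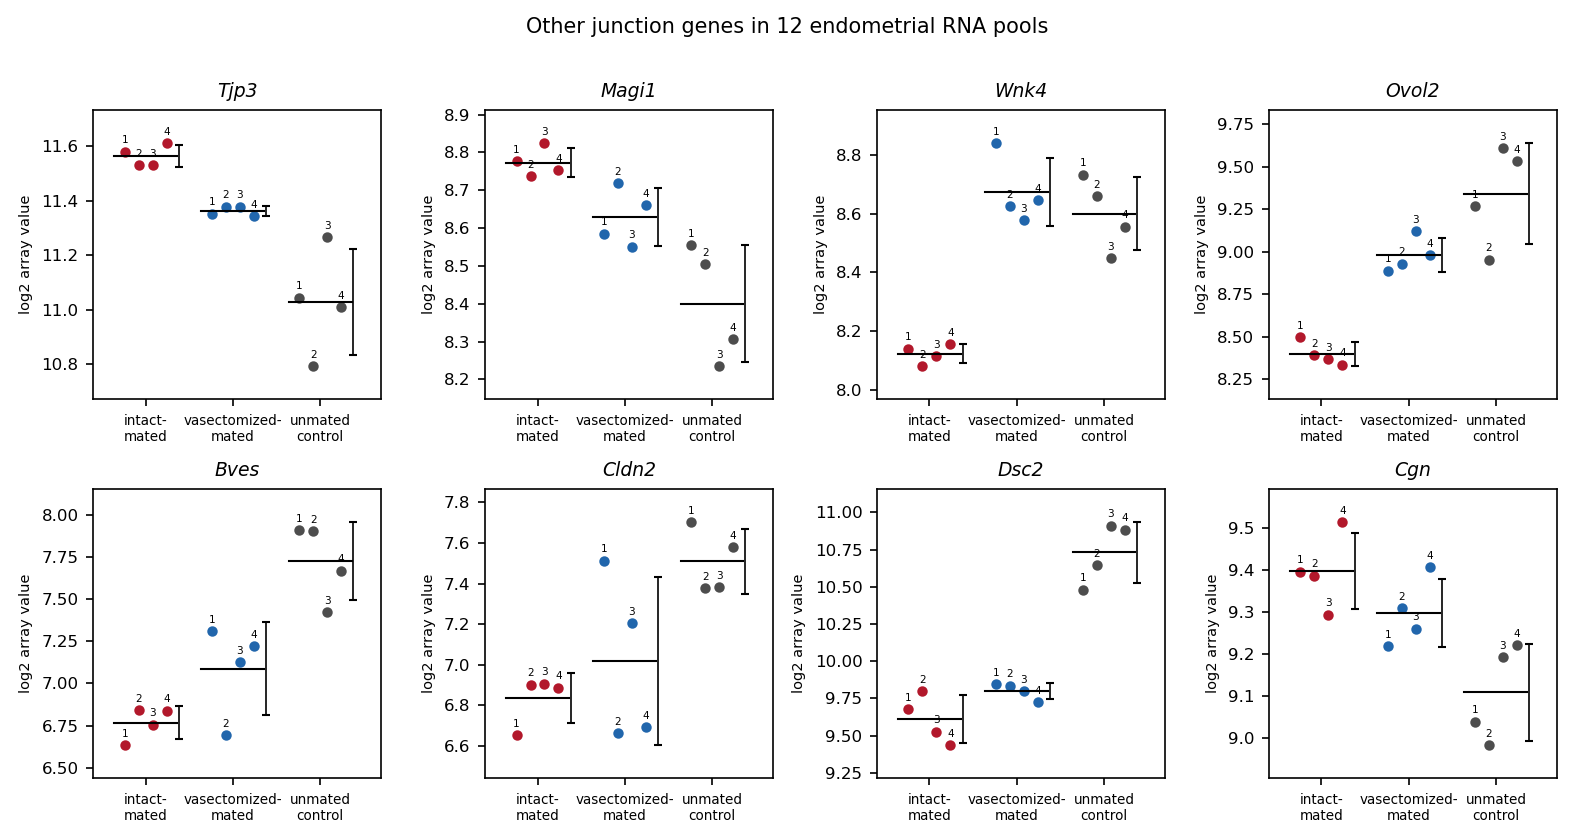
Log2 array values (vertical axes) of 8 other junction genes in each of 12 RNA pools, numbered by replicate, with group means (lines) and SD (bars, n = 4). Tjp3 has no overlap between the 3 groups, and Wnk4 and Ovol2 have intact-mated pools below all others.

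The adherens junction and desmosome, the adhesive junctions beneath the tight junction, gave 1 called gene among 15. It was lower in both mated groups against controls (2.11% of all genes after intact and 0.657% after vasectomized mating). Dsc2, a desmosomal cadherin, had log2 values of 9.68, 9.80, 9.53 and 9.44 in intact-mated pools, 9.85, 9.83, 9.80 and 9.72 in vasectomized-mated pools, and 10.48, 10.65, 10.91 and 10.88 in controls. All 8 mated pools lay below all 4 controls. In this direction 7.91% of all genes did not overlap in intact-mated and 4.85% in vasectomized-mated against control pools. Dsc2 fell by 1.12 after intact mating (adjusted p = 3.14e-05) and by 0.93 after vasectomized mating (adjusted p = 0.000766, limma), and both calls held whichever array was left out. The difference between mated groups was -0.19 (adjusted p = 0.378). After intact mating 3 more genes of the list, named after their values were seen, passed the adjusted p against controls without reaching 1.5-fold. Over all genes 7.64% passed it as higher and 5.99% as lower. The desmosomal genes Dsp and Pkp2 had log2 fold-changes of -0.27 (adjusted p = 0.0255) and 0.23 (0.0377), and Nectin4, an adhesion molecule of adherens junctions, had -0.43 (0.0437, limma). Cdh1, the E-cadherin of epithelial adherens junctions, had log2 fold-changes of -0.09, 0.03 and -0.13 in the 3 comparisons, none past the threshold.

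By list, the median log2 fold-change after intact mating compared to controls was -0.06 for the other claudins, -0.07 for the other membrane proteins, 0.02 for scaffold and polarity proteins, -0.12 for proteins that act on claudins and -0.14 for adherens junctions and desmosomes, beside 0.01 for all genes. After vasectomized mating it was -0.06, 0.01, 0.00, 0.03 and -0.05, beside -0.01 for all genes. Of the 70 measured genes of these 5 lists, 4 were called lower after intact mating against controls (2.11% of all genes) and 2 after vasectomized mating (0.657%), and no other call was made. By the adjusted p alone, 6 were higher and 8 lower after intact mating against controls (7.64% and 5.99% of all genes).

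**Figure D5:**
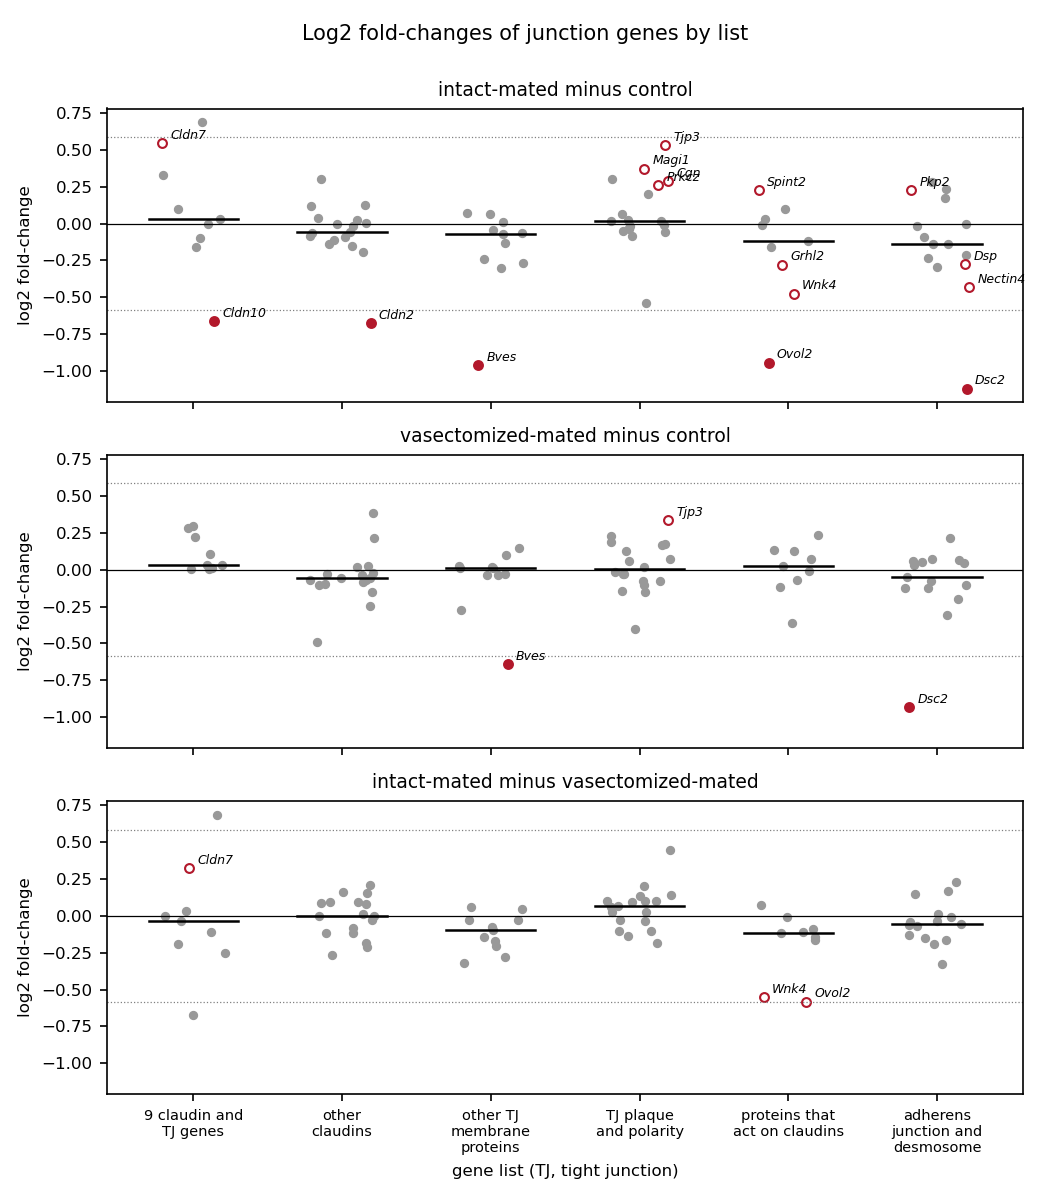
Log2 fold-changes (vertical axes) of single genes (points) by list (horizontal axis) in the 3 comparisons, with list medians (lines) and 1.5-fold (dotted lines). Filled red points are called genes, open red points pass the adjusted p only, and horizontal jitter has no meaning; the 5 filled points in the upper panel all lie below 0.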

How the data were processed

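RNA from 12 pools of scraped mouse endometrium, 4 females each, was labelled from 300 ng and hybridized to Affymetrix Mouse Gene 1.0 ST arrays, 4 per group. The log2 values deposited by the authors came from Partek Genomics Suite, where probes were background-corrected by RMA, corrected for GC content and averaged per cluster. Software versions and the genome build were not given in the sources used here. Groups were read from the sample labels, and 0 sample columns were left unused. The lowest correlation within a group was 0.983.

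Clusters were named from the platform annotation: of 35556, 21789 had 1 symbol, 1621 several and 12146 none. All 12 arrays entered 1 fit with a mean for each group (limma 3.58.1, R 4.3.3, prior degrees of freedom 3.26, residual 9), after the script was tested on simulated data. P-values were adjusted by Benjamini-Hochberg over all clusters, and the methods' thresholds of 1.5-fold and 0.05 were used. Intervals are 95%. The number of arrays limits the precision.

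All 9 genes were named. Of 5 further junction lists every called gene was named, up to 6 a list, and up to 2 genes of each marker list. For a called member the 3 genes of smallest root mean square difference over the arrays were named. Other genes were named after their values were seen, as stated. The members and lists were chosen with earlier results of these data known. Alternatives covered normalization, variance model, array weights, the replicate number as a block, filters, correction, thresholds, choice of cluster and arrays left out. Replicate numbers did not pair the pools.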

Additional observations from a re-analysis of the deposited data

Results flagged for a closer look

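In 2 of 51 sets of 4 pools (17 genes in 3 groups), 1 pool lay far from the others by Dixon's criterion at the 95% level, which chance meets in about 1 set in 20. Among controls, Cldn23 was 8.70 in pool 2 against 9.08 to 9.11 in the other 3, a gap of 0.922 of the range. Among intact-mated pools, Cldn2 was 6.65 in pool 1 against 6.89 to 6.91, a gap of 0.928 of the range, and without that pool its fall after intact mating was no longer called (adjusted p = 0.0656, limma).

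For 3 of the 17 genes the response to intact mating differed from that to vasectomized mating. The direct test set intact-mated against vasectomized-mated pools (limma), and 1.72% of all genes passed it as higher and 1.09% as lower. The 17 were the 9 members, then Cldn2, Bves, Ovol2 and Dsc2, and then Wnk4, Tjp3, Cgn and Magi1. Ovol2 and the genes listed beside it entered because they were called in these data. Wnk4 and the genes after it were named after their values were seen. The shares of all genes are thus no measure of enrichment among the 17. Cldn7 was higher by 0.32, and Ovol2 and Wnk4 had log2 differences of -0.58 and -0.55. The 4 intact-mated pools lay outside the range of the 4 vasectomized-mated pools for each of these genes, and none reached 1.5-fold. Of all genes, 9.04% had all intact-mated pools above all vasectomized-mated pools, and 7.49% below. Wnk4 kept an adjusted p under the threshold with any array left out, at 0.00622 to 0.0256, while Cldn7 and Ovol2 kept it in 5 of 12 such fits each and missed it with replicate number as a block (0.0693 and 0.0525). Of 7 neutrophil markers 6 were also higher on average in intact-mated than in vasectomized-mated pools, and 1 was lower. The part of neutrophil markers in the differences of the 3 genes was not tested.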

How the results depend on the processing

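Over all alternatives, 630 values of the 9 genes kept their direction and their side of the threshold, 15 gained a call, 15 lost one and 42 changed sign. All that changed sign were uncalled. With intact-mated against control pools, the count called higher, 0, was 1 with no fold threshold (Cldn7), 2 without controls 1 and 2, 1 without controls 3 and 4, and 0 to 1 with single arrays left out (1 without control 2). The count called lower, 1 (Cldn10), was 0 without variance moderation (adjusted p = 0.0888), with array weights (0.0739), with the replicate block (0.0776), with only the 2 groups fitted (0.0920), at 2-fold, and without controls 1 and 2 (0.232), and 0 to 1 with single arrays left out. With vasectomized-mated against control pools, 2 were called higher without controls 1 and 2 (Cldn1 and Cldn4, whose values in these controls lay above those in controls 3 and 4). Between mated groups, 1 was called higher with only the 2 groups fitted, with no fold threshold and without controls 1 and 2, and 1 lower with array weights, with only the 2 groups fitted, with dim clusters left out, without controls 3 and 4, and 0 to 1 with single arrays left out (1 without control 4). The cause of these shifts was not tested.

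Changes of sign against controls after intact mating were -0.091 for Cldn1 and -0.012 for Cldn4 without controls 3 and 4, -0.063 for Cldn23 and 0.058 for Tjp1 without controls 1 and 2, and 0.012 for Tjp1 with median centring. Single arrays left out gave -0.070 to 0.069 for Cldn23 and -0.027 to 0.040 for Tjp1. After vasectomized mating, quantile normalization gave -0.050 for Cldn1, -0.032 for Cldn10, -0.039 for Ocln, -0.0048 for Tjp1 and -0.011 for Marveld2, and median centring -0.0076 for Cldn1 and -0.0065 for Ocln. Without controls 3 and 4 the values were -0.78 for Cldn1, -0.045 for Cldn4, -0.21 for Cldn10, -0.031 for Tjp1 and -0.015 for Marveld2, and without controls 1 and 2 -0.036 for Ocln. Single arrays left out gave -0.28 to 0.44 for Cldn1, -0.16 to 0.14 for Cldn10 and -0.037 to 0.077 for Ocln. Between mated groups Cldn3 was 0.013 with quantile normalization and 0.023 with median centring, and single arrays left out gave -0.047 to 0.040 for Cldn3 and -0.036 to 0.091 for Cldn4.

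Replicate numbers paired no pools: same-numbered arrays of different groups had deviations correlated at -0.394 to 0.301, over 0.1 in 4 of 12 pairs, and 2 of 12 arrays correlated best with their own number. The replicate block changed no member's call other than that of Cldn10, though the adjusted p of Cldn7 between mated groups was 0.0693 with it. Of the other named genes it ended the call of Bves after vasectomized mating (0.0570). For the other named genes 303 values kept direction and side, 11 gained a call, 21 lost one and 0 changed sign. Cldn2 and Bves lay below the median of all clusters in every intact-mated pool, where array intensity carries less signal over background.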
